A study of Mus musculus with 11 samples.

Results

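The genes of fatty acid oxidation and the classical targets of PPARα, the nuclear receptor that fatty acids activate, were followed in the liver RNA of mice that had received a decoy against 2 miRNAs. The group was fixed by gene symbol. It holds 37 listed genes, of which 36 are among the 13669 genes of the deposited table and among the 13334 that had enough reads to be tested. The expression of *Acadvl*, the remaining one, was not analysed here. Roles given for single genes are general background.

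Recombinant AAV8 carrying a tough decoy (TuD) with one binding site for *miR-379* and one for *miR-541* was given to 6 mice (AAV-TuD), and the same vector with a negative control sequence to 5 mice (AAV-NC). Wild-type male C57BL/6J mice on regular chow were used in both groups, and in both the vector was driven by LP1, an artificial promoter with high specificity for hepatocytes, so that both groups carry the virus. For its decoy experiments in general the study describes tail vein injection of adult mice bought at 6 weeks of age and kept for 4 weeks before use, and killing after 5 to 6 h without food, from 4 weeks to 3 months after the virus. The time of each of these livers is not given. The labels number each liver without naming the animal, and p values then measure the spread between these 11 samples.

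RNA of whole liver pieces was sequenced from the 3′ end of polyadenylated transcripts, and the deposited values are read counts per gene. Between 8148531 and 12043959 reads per liver were counted. Values are given as CPM, the reads of a gene scaled to a common library size with the TMM factors of edgeR. The major urinary protein (*Mup*) genes took 38.6% of the reads in AAV-NC 7, 30.9% in AAV-TuD 3, 28.4% in AAV-TuD 5 and between 8.09% and 18.7% in the other 8 livers. Scaling matters here, since with library size alone the log2 fold changes over all genes had a median of 0.23 in place of -0.0024, and 95.1% of the genes past the threshold were on the higher side, compared to 62.6% with TMM. Of the hepatocyte markers *Alb*, *Apoa1*, *Ttr*, *Serpina1c*, *Cps1* and *Hnf4a*, 0 were higher and 1, *Hnf4a*, was lower with AAV-TuD in edgeR. DESeq2 and limma each called 3 of these 6. All 6 AAV-TuD livers were above every AAV-NC liver for *Alb* and below every one for *Serpina1c* (adjusted p = 0.0631 in edgeR). Such separation in either direction was seen for 7.39% of all genes. Their summed level, between 34306 and 40722 CPM with AAV-NC and between 42052 and 48447 CPM with AAV-TuD, is mostly that of *Alb* (log2 fold change 0.41, adjusted p = 0.0805), and the log2 fold changes of the other markers lay between -0.38 and 0.09.

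In the liver, long-chain fatty acids are joined to coenzyme A, carried into mitochondria by the carnitine shuttle, and shortened step by step in β-oxidation, a cycle of dehydrogenation, hydration, dehydrogenation and thiolysis. Electrons of the first dehydrogenation leave through the electron transfer flavoprotein, and the acetyl-CoA formed feeds the citric acid cycle or ketone body synthesis. Peroxisomes shorten very long chains, and microsomal CYP4A enzymes oxidize the far end of the chain (ω-oxidation). PPARα binds DNA as a partner of RXR at direct repeats of a short motif, is most active in fasting, and its targets in rodent liver span all of these steps.

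The mature miRNAs that the decoy was built to bind are shown with the seed, bases 2 to 8, in capitals, because the seed is the part that pairs with target mRNAs. Both come from chromosome 12 of GRCm38 on the plus strand, *miR-379-5p* from 109709065 to 109709085 and *miR-541-5p* from 109742422 to 109742446 (RefSeq).
miR-379-5p: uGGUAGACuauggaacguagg
miR-541-5p: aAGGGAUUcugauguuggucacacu
Their seeds differ. Matches to the seed of *miR-379-5p* were found in the longest annotated 3′ UTR of 2 of the 36 genes, *Hadha* and *Hsd17b4* (5.56%, compared to 5.72% of the 10935 tested genes with a 3′ UTR). For *miR-541-5p* they were found in *Ppara* and *Cpt1a* (5.56%, compared to 9.51%). The 3′ UTRs of the group are shorter, with a median of 747 bases compared to 1392 bases. The sites of *Hadha*, *Ppara* and *Cpt1a* are printed as the transcript reads, with the match in capitals.
Hadha, from base 410 of 1511 in the 3′ UTR: gttttcttctGTCTACCcttgtgtttg
Ppara, from base 391 of 1561: cactctcttaAATCCCTgaaaactaat
Cpt1a, from base 279 of 1892: aatgctggtgAATCCCTggattttggg
A match of letters is a description and does not show that the miRNA acts on the transcript.

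As a whole, the group was little different between AAV-TuD and AAV-NC livers. Expression of 4 of the 36 genes, *Acot2*, *Vnn1*, *Ucp2* and *Pdk4*, was higher with AAV-TuD at an adjusted p value under 0.05 (edgeR's quasi-likelihood test, Benjamini-Hochberg adjustment over all 13334 genes). This is 11.1% of the group, beside 11.6% of all genes tested that differed in either direction, 7.24% that were higher and 4.33% that were lower. No gene of the group was lower at this threshold in edgeR, DESeq2 or limma, and at an unadjusted p value under 0.05 the number lower was 1, 2 and 3 in these tools. The median log2 fold change was 0.01 in the group and -0.0024 over all genes. The values of the 6 AAV-TuD livers lay entirely above those of the 5 AAV-NC livers for 2 of the 36 genes, *Acot2* and *Vnn1*, and entirely below them for 0, while such separation in either direction was seen for 7.39% of all genes. The 4 higher genes lie outside the oxidation enzymes themselves, as the plot of all genes by liver shows.

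**Figure D1:**
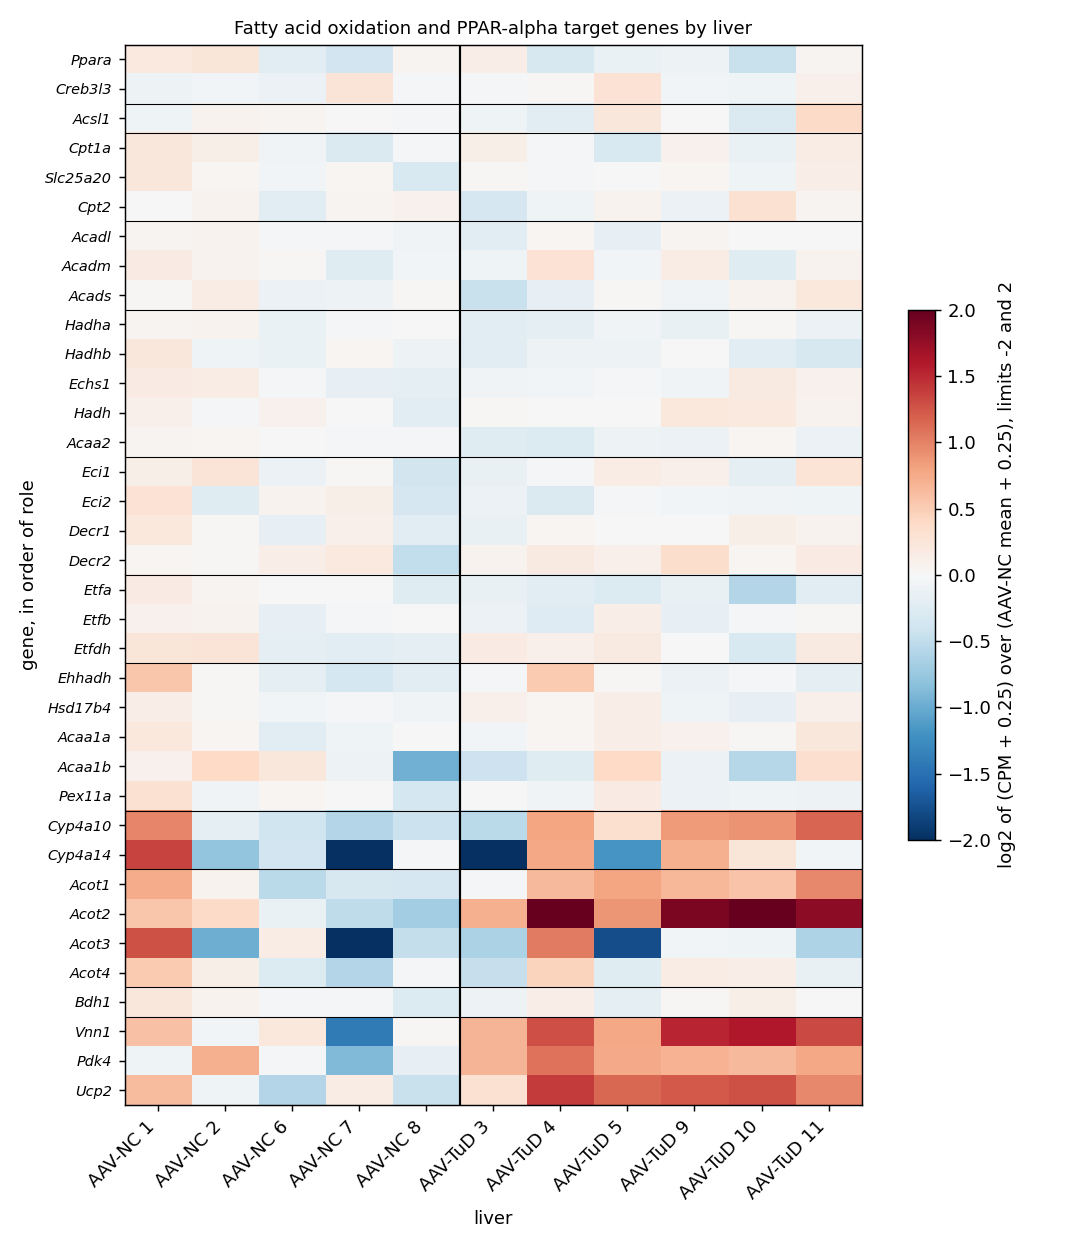
Level of the 36 genes (rows, in order of role) in the 5 AAV-NC and 6 AAV-TuD livers (columns), as log2 of CPM relative to the AAV-NC mean, with 0.25 added to both and colours limited at 2 in either direction. Rows of the oxidation enzymes are pale in both groups, *Acot2*, *Vnn1*, *Pdk4* and *Ucp2* are red across the AAV-TuD livers, and *Cyp4a14* and *Acot3* differ strongly between livers of one group.

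The transcription factors of the group did not pass the test. *Ppara* was at 193, 199, 146, 129.9 and 175 CPM in AAV-NC 1, 2, 6, 7 and 8, and between 124 and 185 CPM with a median of 156 CPM in the AAV-TuD livers. The lowest and the highest value of each group were close to those of the other, and 0 of the 6 AAV-TuD livers exceeded the highest AAV-NC value. The log2 fold change of -0.12 had a standard error of 0.12 (adjusted p = 0.586), and its 95% confidence interval ran from 0.768 to 1.1 times the AAV-NC level. *Creb3l3*, which encodes CREBH, a membrane-bound factor that works with PPARα in fasting, was between 235 and 303 CPM with AAV-NC and between 239 and 309.9 CPM with AAV-TuD (log2 fold change 0.04, adjusted p = 0.805).

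The 25 tested genes for acyl-CoA synthesis, the carnitine shuttle, β-oxidation, electron transfer, peroxisomal oxidation and ketone bodies changed little. Left out of the 25 are the transcription factors, ω-oxidation genes, thioesterases and remaining PPARα targets, which hold all 4 higher genes. In edgeR, 0 of the 25 passed the test, beside 11.6% of all genes tested, and 1 had an unadjusted p value under 0.05. DESeq2 and limma gave 0 (2 and 3 unadjusted). Fold changes of the 25 genes lay between 0.838 and 1.11. The 95% confidence interval stayed within 1.5-fold in either direction for all 25, with bounds from 0.670 to 1.39. The median size of their log2 fold changes, without sign, was 0.04. It was 0.15 over the 8617 genes with mean reads between the lowest and the highest of the 25. These genes were not matched in abundance within that range, and counting error is larger at few reads. Summed over the 25 genes, the level was between 2917 and 3367 CPM with AAV-NC and between 2936 and 3361 CPM with AAV-TuD. With DESeq2 size factors, upper-quartile factors or TMM factors computed without the *Mup* genes the interval stayed within 1.5-fold for all 25, but with library size alone it did so for 13, around a median log2 fold change of 0.24, with 0 of the 25 past the threshold.

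*Acsl1*, the main long-chain acyl-CoA synthetase of liver, was between 547 and 609 CPM with AAV-NC and between 475 and 755 CPM with AAV-TuD (log2 fold change 0.02, adjusted p = 0.924). The spread was wider among AAV-TuD livers, 2 of which exceeded the highest AAV-NC value. *Cpt1a*, which forms acylcarnitines at the outer mitochondrial membrane and is the controlled step of the pathway, was at 99.9, 92.6, 81.8, 70.0 and 84.4 CPM with AAV-NC and between 69.6 and 95.2 CPM with AAV-TuD, and these ranges nearly coincide. The difference was -0.01 on the log2 scale (standard error 0.10, adjusted p = 0.974, fold interval from 0.859 to 1.15). The carrier *Slc25a20* and the inner membrane transferase *Cpt2* had log2 fold changes of 0.02 and -0.01.

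Among the acyl-CoA dehydrogenases, *Acadm* (medium chain) was between 133 and 177 CPM with AAV-NC and between 133 and 192 CPM with AAV-TuD, with a log2 fold change of 0.03. *Acadl* (long chain) and *Acads* (short chain) were both at -0.04. Of the genes for the following steps, *Acaa2* encodes the mitochondrial thiolase. It was between 446 and 477 CPM with AAV-NC and between 380.5 and 469.6 CPM with AAV-TuD. Of the 6 AAV-TuD livers, 5 were below its lowest AAV-NC value. Unadjusted p values for *Acaa2* were 0.0858 in edgeR, 0.0377 in DESeq2 and 0.0236 in limma. Its log2 fold change of -0.13 (adjusted p = 0.263) was close to those of *Hadha* and *Hadhb*, which encode the subunits of the trifunctional protein (-0.12 and -0.16, adjusted p = 0.264 and 0.238). *Hadha* was at 219.6, 222, 193, 208 and 213 CPM with AAV-NC, and between 180.2 and 214 CPM with a median of 193 CPM with AAV-TuD. Its values overlapped between the groups. *Echs1*, the short-chain hydratase, and *Hadh*, the short-chain hydroxyacyl dehydrogenase, had log2 fold changes of 0.01 and 0.09.

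The auxiliary enzymes that move or remove double bonds of unsaturated chains had log2 fold changes between -0.10 and 0.15. *Decr2*, the peroxisomal dienoyl-CoA reductase, was the most abundant of the 4 in reads. *Decr2* was between 136 and 219.9 CPM with AAV-NC, where AAV-NC 8 was low. With AAV-TuD it was between 197 and 244 CPM (adjusted p = 0.38). It is uncertain because 107 bases near its end match *Ccdc6* at 96.3%.

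*Etfa*, the α subunit of the electron transfer flavoprotein, was the oxidation gene nearest to the threshold. It was at 107, 98.7, 94.9, 94.8 and 80.8 CPM with AAV-NC, and between 63.5 and 86.1 CPM with a median of 81.9 CPM with AAV-TuD. AAV-NC 8 fell within the AAV-TuD range and AAV-TuD 10 lay well below the other livers. The difference was -0.26 on the log2 scale, with a standard error of 0.09 (adjusted p = 0.0754). It passed the threshold without AAV-NC 8 (log2 fold change -0.31, adjusted p = 0.0385) and without no other single liver. Without each liver in turn its log2 fold change lay between -0.31 and -0.19, with adjusted p values up to 0.178. Its partner subunit *Etfb* was between 157 and 185 CPM with AAV-NC and between 146 and 192 CPM with AAV-TuD (log2 fold change -0.06), and *Etfdh*, which passes the electrons to ubiquinone, was at 0.06.

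In peroxisomes, *Ehhadh* and *Hsd17b4*, the bifunctional enzymes, had log2 fold changes of 0.05 and 0.02, and the thiolases *Acaa1a* and *Acaa1b* of 0.08 and -0.05. *Pex11a*, a factor of peroxisome proliferation and a marker of PPARα activity in rodents, was between 85.2 and 134 CPM with AAV-NC and between 100 and 122 CPM with AAV-TuD (log2 fold change -0.03, adjusted p = 0.876). *Bdh1*, which interconverts the ketone bodies, was between 94.3 and 134 CPM with AAV-NC and between 99.8 and 125 CPM with AAV-TuD, with a log2 fold change of 0.00 and an adjusted p of 0.984. Some of these values are uncertain at the level of the single gene. The last 500 bases of *Acaa1a* and *Acaa1b* transcripts are at least 97.8% identical over 319 bases or more. *Hadhb*, *Etfa*, *Etfb* and *Eci2* share at least 95% over 244 to 501 bases with a gene that is not in the table. Exons of genes on the other strand overlap last exons of *Acaa1b*, *Eci2* and *Hadha*.

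**Figure D2:**
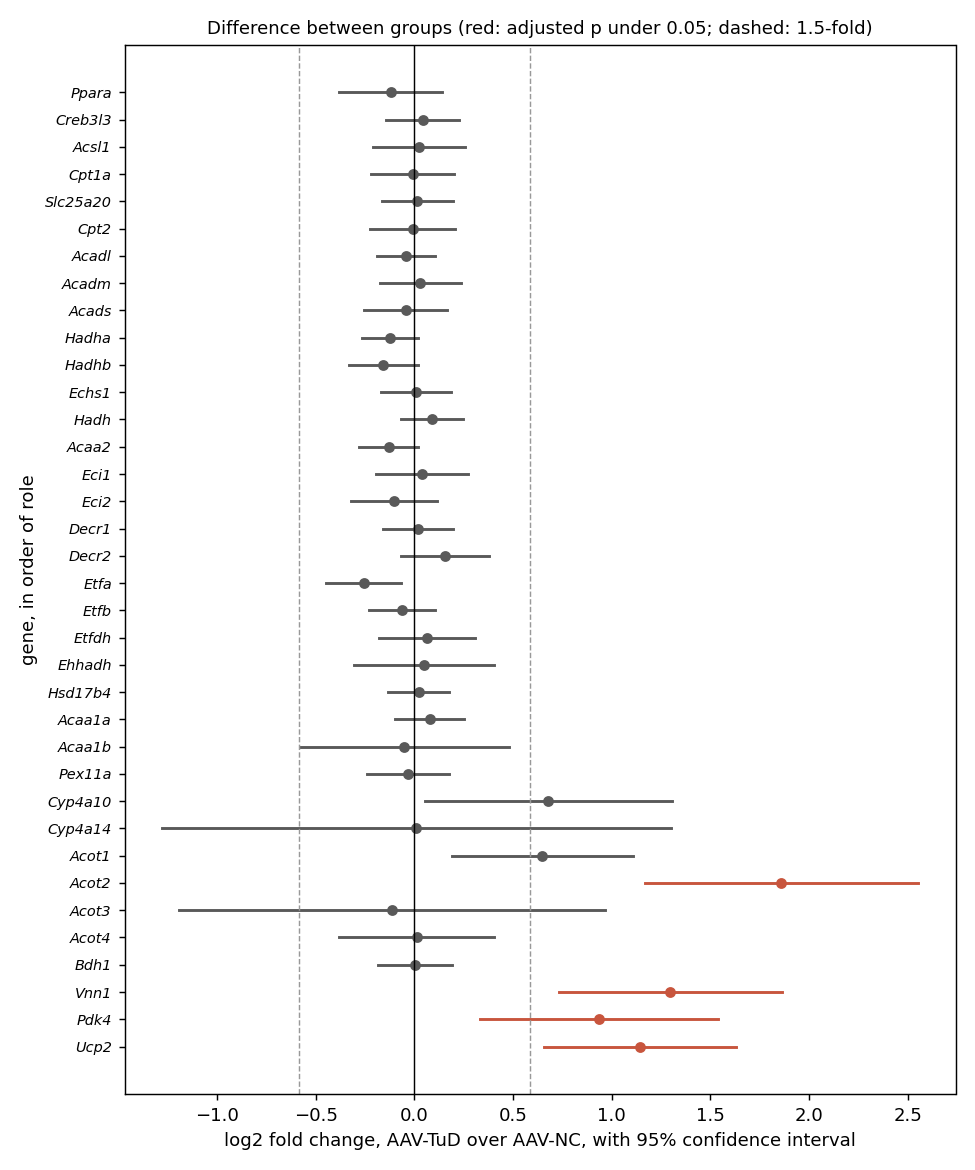
Log2 fold change of AAV-TuD over AAV-NC for each of the 36 genes (points) with the 95% confidence interval from edgeR (lines); red marks an adjusted p under 0.05 and the dashed lines 1.5-fold. Intervals of the 25 oxidation genes from *Acsl1* to *Pex11a* and *Bdh1* lie between the dashed lines, the intervals of *Cyp4a14* and *Acot3* are the widest, and 4 genes are red.

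The acyl-CoA thioesterases cut acyl-CoA into free fatty acid and coenzyme A. *Acot1* in the cytosol, *Acot2* in mitochondria and *Acot3* and *Acot4* in peroxisomes lie next to each other on chromosome 12 of GRCm38 on the plus strand, *Acot2* from 83987861 to 83993873, *Acot1* from 84009490 to 84018371, *Acot4* from 84038379 to 84048601 and *Acot3* from 84052144 to 84060402. *Acot2* had the largest change of the group. It was at 8.83, 7.80, 5.42, 4.13 and 3.6 CPM in AAV-NC 1, 2, 6, 7 and 8, and at 9.86, 34.3, 11.2, 22.8, 29.0 and 21.3 CPM in AAV-TuD 3, 4, 5, 9, 10 and 11. The lowest AAV-TuD liver was above the highest AAV-NC liver, and AAV-TuD 3 and 5, the livers with many *Mup* reads, were the 2 lowest of their group. The means were 5.96 ± 2.28 CPM (SD, n = 5) and 21.4 ± 9.64 CPM (SD, n = 6), a 3.63-fold difference (log2 fold change 1.86, standard error 0.32, adjusted p = 0.00275). Without AAV-NC 7, AAV-TuD 3 and AAV-TuD 5 the log2 fold change of *Acot2* was 2.08.

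Its neighbour *Acot1* was at 15.6, 9.82, 6.31, 7.39 and 7.30 CPM with AAV-NC and between 9.02 and 18.3 CPM with a median of 14.7 CPM with AAV-TuD. AAV-NC 1 was high and AAV-TuD 3 low for their groups, and the values overlapped. The log2 fold change was 0.65 (standard error 0.22), with an adjusted p of 0.0641 that missed the threshold. It was past it in DESeq2 (adjusted p = 0.036) and limma-voom (0.0472), with library size alone (0.0122), and without AAV-NC 1 (0.0090) or AAV-TuD 3 (0.0208). Without each liver in turn its log2 fold change lay between 0.54 and 0.92, with adjusted p values up to 0.151. *Acot4* was between 13.3 and 29.0 CPM with AAV-NC and between 14.5 and 27.4 CPM with AAV-TuD (log2 fold change 0.01, adjusted p = 0.976). It is uncertain because 115 bases near its end match *Acot6* at 98.3% and because an exon of a gene on the other strand overlaps its last exon. *Acot3* varied widely within groups and is described with *Cyp4a14*. Whether *Acot1*, *Acot3* and *Acot4* differed from *Acot2* in their response was not tested.

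*Vnn1* encodes vanin-1, a pantetheinase that releases cysteamine and pantothenate in coenzyme A turnover and is a PPARα target in liver. It was at 5.25, 3.27, 3.98, 1.13 and 3.50 CPM with AAV-NC, and at 5.63, 8.75, 6.05, 10.4, 10.9 and 8.98 CPM in AAV-TuD 3, 4, 5, 9, 10 and 11. The groups did not overlap, although AAV-NC 1 and AAV-TuD 3 were close. The means were 3.43 ± 1.5 CPM (SD, n = 5) and 8.44 ± 2.17 CPM (SD, n = 6), with a log2 fold change of 1.30 (standard error 0.27, adjusted p = 0.00629). It lies on chromosome 10 of GRCm38 from 23894688 to 23905343.

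*Ucp2*, an uncoupling protein family member of the inner mitochondrial membrane, was at 7.88, 4.66, 3.21, 5.51 and 3.6 CPM with AAV-NC, and at 6.20, 13.6, 11.4, 12, 12.3 and 9.92 CPM in AAV-TuD 3, 4, 5, 9, 10 and 11. AAV-TuD 3 fell below AAV-NC 1, and the other 5 exceeded the highest AAV-NC value. The means were 4.97 ± 1.86 CPM (SD, n = 5) and 10.9 ± 2.60 CPM (SD, n = 6), with a log2 fold change of 1.14 (standard error 0.23, adjusted p = 0.00537). An exon of *Dnajb13*, on the other strand and not in the table, overlaps a last exon of *Ucp2*. The strand setting of the counting is not given, so that this value is uncertain too. *Ucp2* is also known from macrophages, and markers of other liver cells moved with the groups. Of 8 Kupffer cell markers 5 were higher with AAV-TuD. Their summed level was between 91.3 and 139 CPM with AAV-NC and between 103 and 302 CPM with AAV-TuD. Stellate cell markers were higher for 6 of 8 (between 199.5 and 256 CPM compared to between 330.0 and 423 CPM), and those of cholangiocytes for 5 of the 5 tested of 8 (between 85.7 and 122 CPM compared to between 151 and 189 CPM). Neutrophil and monocyte markers were higher for 2 of the 3 tested of 6, at most at 4.38 CPM in sum with AAV-NC and 11.8 CPM with AAV-TuD, markers of sinusoidal endothelium for 0 of 8 in edgeR (0 also at an unadjusted p under 0.05, in DESeq2 and in limma), and none of the 6 T and B cell markers was among the tested genes. Most of the stellate cell sum was *Dcn* (means 150 CPM with AAV-NC and 259 CPM with AAV-TuD). Most of the cholangiocyte sum was *Cdh1* (means 81.1 and 106 CPM). Of the neutrophil and monocyte markers tested, *S100a9* was not past the threshold (adjusted p = 0.684 in edgeR). No marker tested was at 0 in any liver. Their part in the result for *Ucp2*, and for the other 3 higher genes, was not tested. In bulk RNA, fewer cells of a type and less RNA per cell cannot be told apart.

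*Pdk4*, the kinase that shuts down pyruvate dehydrogenase when fatty acids are burned, had the fewest reads of the group, between 3 and 24 per liver. It was at 0.836, 1.64, 0.885, 0.376 and 0.779 CPM with AAV-NC, and at 1.6, 2.19, 1.7, 1.62, 1.55 and 1.71 CPM in AAV-TuD 3, 4, 5, 9, 10 and 11. AAV-NC 2 lay within the AAV-TuD range, and 3 of the 6 AAV-TuD livers were above it. The means were 0.902 ± 0.457 CPM (SD, n = 5) and 1.73 ± 0.233 CPM (SD, n = 6), with a log2 fold change of 0.94 (standard error 0.28, adjusted p = 0.0443). This call was the least stable of the 4. It was lost without any one of 9 of the 11 livers (all but AAV-NC 2 and AAV-TuD 3), with log2 fold changes of *Pdk4* between 0.75 and 0.97 in those 9 fits, and after removal of a trend with abundance (adjusted p = 0.0744). *Acot2*, *Vnn1* and *Ucp2* kept the call without each liver in turn, with log2 fold changes from 1.68 to 2.04, from 1.08 to 1.49 and from 1.02 to 1.37.

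**Figure D3:**
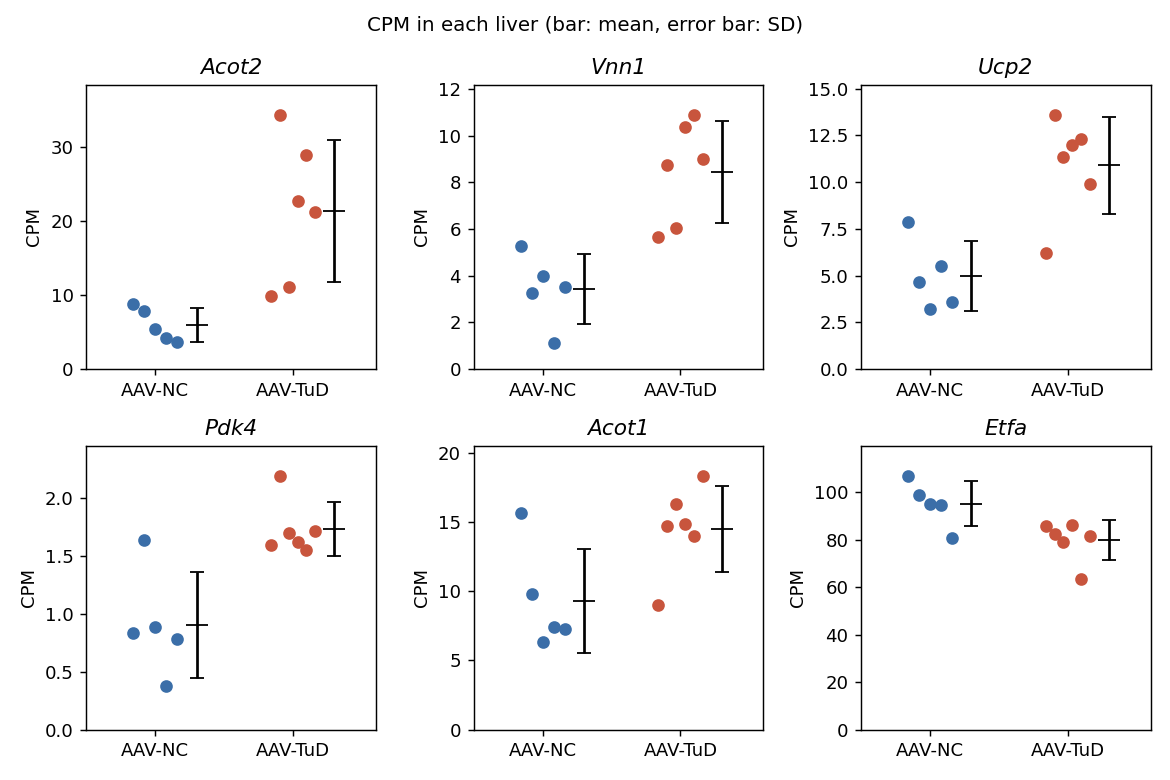
CPM of *Acot2*, *Vnn1*, *Ucp2*, *Pdk4*, *Acot1* and *Etfa* in each AAV-NC (blue, n = 5) and AAV-TuD (red, n = 6) liver, with the group mean and SD (black). The groups are apart for *Acot2* and *Vnn1*, 1 AAV-TuD liver overlaps AAV-NC for *Ucp2*, and the values of *Pdk4*, *Acot1* and *Etfa* overlap.

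Both genes of ω-oxidation varied widely between livers of one group. *Cyp4a10* was at 117, 52.2, 45.2, 39.8 and 44.6 CPM with AAV-NC, and at 41.1, 104, 75.0, 108, 112 and 134 CPM in AAV-TuD 3, 4, 5, 9, 10 and 11. AAV-NC 1 was as high as the AAV-TuD livers, and AAV-TuD 3 as low as the AAV-NC livers. The log2 fold change of 0.68 had a standard error of 0.29 (adjusted p = 0.153). Without AAV-NC 1 it was 1.07 (adjusted p = 0.0153) and without AAV-TuD 3 it was 0.84 (adjusted p = 0.0401). No other single removal brought it past the threshold. Without each liver in turn it lay between 0.56 and 1.07, with adjusted p values up to 0.281. With library size alone it was 0.93 (adjusted p = 0.0232).

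*Cyp4a14*, one of the most responsive PPARα targets of mouse liver, was at 182, 41.3, 54.8, 9.01 and 69.6 CPM in AAV-NC 1, 2, 6, 7 and 8, and at 6.86, 122, 31.3, 117, 84.3 and 68.8 CPM in AAV-TuD 3, 4, 5, 9, 10 and 11. Both groups held livers under 10 CPM and livers above 100 CPM. The log2 fold change of 0.01 had a standard error of 0.61 (adjusted p = 0.994), and the 95% confidence interval ran from 0.413 to 2.46 times the AAV-NC level, so that a difference of 2-fold in either direction was within it. The 3 livers with the largest share of *Mup* reads, AAV-NC 7, AAV-TuD 3 and AAV-TuD 5, were the 3 lowest for *Cyp4a14*. *Acot3* was at 12.4, 2.39, 5.53, 1 and 3.50 CPM with AAV-NC, and at 3.10, 10.5, 1.27, 4.78, 4.66 and 3.16 CPM in AAV-TuD 3, 4, 5, 9, 10 and 11. AAV-NC 1 and AAV-TuD 4 were the highest livers for both *Cyp4a14* and *Acot3*. The log2 fold change of *Acot3* was -0.11 (standard error 0.51, adjusted p = 0.923). It is uncertain because an exon of *Gm49366*, on the same strand, overlaps a last exon of *Acot3*. Over the 36 genes, AAV-NC 1 was the highest liver for 14 and AAV-NC 8 the lowest for 11.

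**Figure D4:**
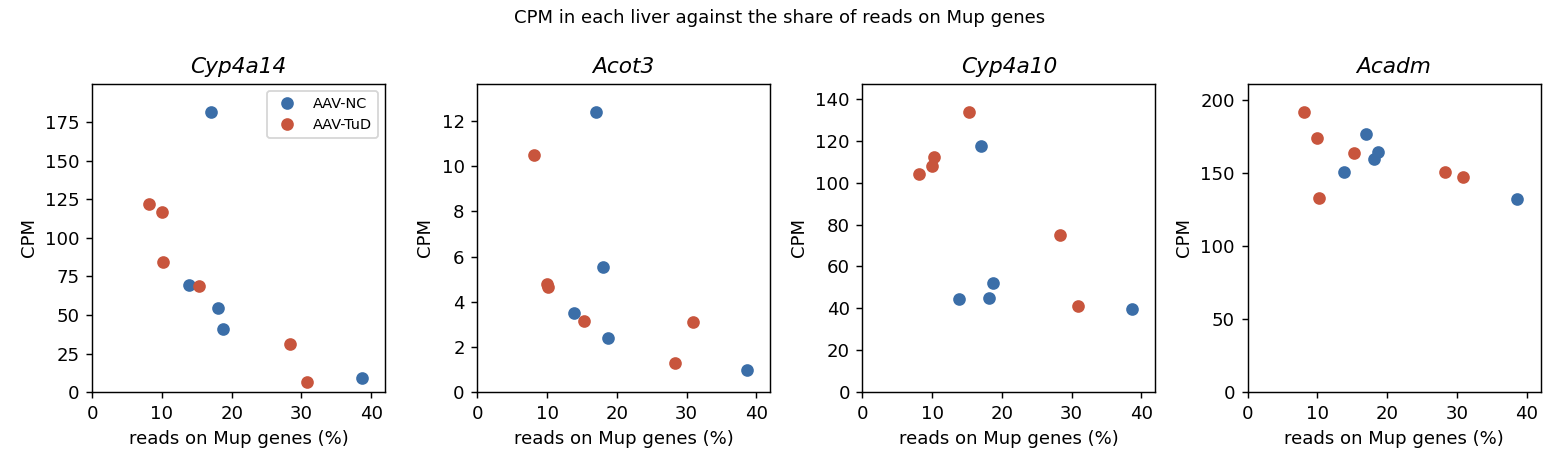
CPM of *Cyp4a14*, *Acot3*, *Cyp4a10* and, for comparison, *Acadm* in each liver (vertical axes, from 0) against the share of its reads on *Mup* genes in percent (AAV-NC blue, AAV-TuD red). The 3 livers at 28.4% or more are the lowest for *Cyp4a14*, AAV-NC 1 is high for the first 3 genes, and *Acadm* stays between 133 and 192 CPM.

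Promoters were searched for a direct repeat of AGGTCA with 1 base between the repeats (the DR1 arrangement that PPARα and RXR bind), on both strands and with up to 2 mismatches in the 12 repeated bases, from 250 bases before to 50 after the start. A match was found in 5 of 35 promoters of 31 genes of the group, *Acadvl* included (14.3%), compared to 3.86% of all 32851 promoters of that length in the RefSeq table. The 5 matches, none of them exact, are printed on the strand of the gene with the match in capitals, since they are the places that the search found. None is in *Acot2*, *Ucp2* or *Pdk4*, and no window of *Vnn1* was searched.
Echs1, chr7:140116484-140116512, minus strand: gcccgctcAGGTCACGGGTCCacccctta
Etfa, chr9:55512300-55512328, minus strand: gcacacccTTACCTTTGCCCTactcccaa
Slc25a20, chr9:108662134-108662162, plus strand: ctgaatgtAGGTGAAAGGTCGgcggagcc
Creb3l3, chr10:81092780-81092808, minus strand: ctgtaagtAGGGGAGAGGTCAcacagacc
Acot4, chr12:84038358-84038386, plus strand: ccgaagcaTGACCTTTGGCCGgtctgtgc
Those of *Etfa* and *Acot4* read as the repeat on the opposite strand, and each of the 5 holds 2 mismatches. That of *Creb3l3* is in a promoter inside the gene, from 81092542 to 81092841, and the promoter searched at the start of the gene holds none. Absence of a match says only that these letters are not in the window. Coordinates are those of GRCm38.p6.

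Other genes of the pathway, 144 by list, 131 of them tested, gave 6 higher and 9 lower with AAV-TuD, 11.5% of those tested beside the 11.6% of all genes. With library size alone 0 of these 9 lower genes passed the threshold in edgeR. None of 17 peroxins, 27 other peroxisomal genes or 11 genes of pyruvate dehydrogenase and its kinases passed edgeR's test, with 1, 4 and 3 at an unadjusted p value under 0.05. DESeq2 called 0, 1 and 1 of them, and limma 0, 1 and 1. The most abundant genes of these lists were *Pxmp4*, *Scp2* and *Mpc2*, with log2 fold changes of 0.15, -0.02 and 0.02. The end of *Scp2* is 99.4% identical to a pseudogene in the table.

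Of 28 other genes of mitochondrial fatty acid metabolism, *Acsl4*, a synthetase that prefers arachidonate, was lower (93.3 ± 16.4 CPM, SD, n = 5, with AAV-NC and 68.7 ± 5.11 CPM, SD, n = 6, with AAV-TuD, log2 fold change -0.44, adjusted p = 0.0112). *Acsm1*, a medium-chain synthetase and the most abundant of the list, was lower in all 6 AAV-TuD livers than in any AAV-NC liver (log2 fold change -0.25, adjusted p = 0.020). *Acot9*, a mitochondrial thioesterase with between 6 and 34 reads, was higher (0.92, adjusted p = 0.0241), and its end is 97.5% identical to that of *Acot10* over 359 bases. The call of *Acot9* was lost without AAV-NC 1, AAV-NC 7 or AAV-TuD 4 (adjusted p between 0.0505 and 0.0545), and that of *Acsm1* without AAV-TuD 11 (adjusted p = 0.0505). In ketone metabolism, *Oxct1*, which uses ketone bodies and is nearly silent in hepatocytes, was higher, from 5.56 ± 1.87 CPM (SD, n = 5) to 10.3 ± 2.71 CPM (SD, n = 6), with a log2 fold change of 0.87 (adjusted p = 0.0182). Its 3′ UTR holds a match to the seed of *miR-379-5p*, as do 5.72% of the tested genes with a 3′ UTR. *Pxmp4*, not past the threshold, and the corepressor *Ncor1*, which was lower, hold a match to the seed of *miR-541-5p* (9.51% of tested genes). Whether the miRNAs act on these transcripts was not tested.

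In ω-oxidation beyond the group, *Cyp4f14*, *Cyp4f13* and *Cyp4f15*, hydroxylases of fatty acids and eicosanoids, were lower (log2 fold changes -0.39, -0.40 and -0.26, adjusted p = 0.00521, 0.00916 and 0.0416), and *Aldh3a2*, the fatty aldehyde dehydrogenase and a PPARα target, was higher. *Aldh3a2* rose from 39.3 ± 10.9 CPM (SD, n = 5) to 62.4 ± 8.19 CPM (SD, n = 6), a log2 fold change of 0.67 (adjusted p = 0.00797), with 5 of 6 AAV-TuD livers above the highest AAV-NC value. *Cyp4f15*, the fourth gene by p value, is named outside the rule, after its values were seen, and its call was lost without any one of 8 of the 11 livers. *Cyp4a12a*, the male-specific enzyme and the most abundant, was between 213 and 539 CPM with AAV-NC and between 253 and 401 CPM with AAV-TuD (log2 fold change -0.31, adjusted p = 0.336), and its end is 97.8% identical to *Cyp4a12b*.

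Of 20 further PPARα targets, *Retsat*, retinol saturase, was lower in all 6 AAV-TuD livers than in any AAV-NC liver (206 ± 35.5 CPM, SD, n = 5, and 128 ± 16.6 CPM, SD, n = 6, log2 fold change -0.68, adjusted p = 0.00206). *Slc27a1*, a fatty acid transport protein typical of muscle and fat, and *Acot6*, of the same cluster as *Acot2*, were higher from very low levels of 0.604 and 0.700 CPM (log2 fold changes 1.36 and 1.43, adjusted p = 0.0118 and 0.0248, at most 27 and 35 reads per liver), and the end of *Slc27a1* resembles those of several unrelated genes. The call of *Acot6* was lost without AAV-NC 1, 7 or 8 or AAV-TuD 11 (log2 fold changes between 1.21 and 1.40, adjusted p between 0.0510 and 0.0634). *Fabp1*, the abundant fatty acid binding protein of liver, was between 2042 and 2401 CPM with AAV-NC and between 1502 and 2327 CPM with AAV-TuD, with a log2 fold change of -0.28 (adjusted p = 0.136), and passed the threshold without AAV-TuD 5 (adjusted p = 0.0468).

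Among 18 partners and coregulators of PPARα, *Pparg*, the relative that drives lipid storage, was higher from 1.02 ± 0.380 CPM (SD, n = 5) to 2.59 ± 0.750 CPM (SD, n = 6), with a log2 fold change of 1.35 (adjusted p = 0.00883). *Hnf4a*, a master regulator of hepatocyte genes, was lower (-0.38, adjusted p = 0.015), as were *Lpin1*, a coactivator and phosphatidate phosphatase (-0.89, adjusted p = 0.0458), and the corepressor *Ncor1* (-0.20, adjusted p = 0.0476), which was named after its values were seen. The calls of *Lpin1* and *Ncor1* were lost without any one of 8 and of 10 of the 11 livers, and with library size alone the log2 fold change of *Ncor1* was 0.03. The end of *Ncor1* is 95.3% identical to *Gm6743* over 255 bases. An exon of *Ttc19*, on the other strand, overlaps a last exon of *Ncor1*, so that its value is uncertain. *Lpin2*, the most abundant of this list, had a log2 fold change of 0.08.

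**Figure D5:**
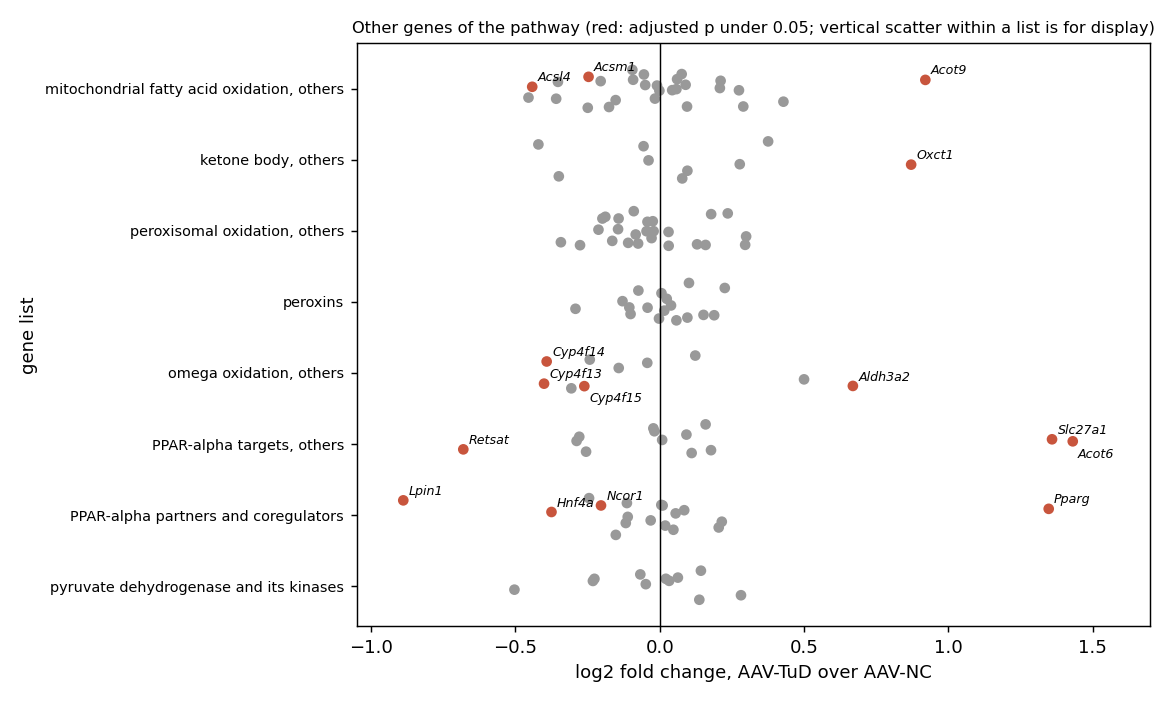
Log2 fold change of AAV-TuD over AAV-NC (horizontal axis) for the 131 tested pathway genes outside the group, by list (rows), with an adjusted p under 0.05 in red and named. Peroxins, other peroxisomal genes and pyruvate dehydrogenase genes have no red point, and the 6 higher and 9 lower genes are spread over the other 5 lists.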

How the data were processed

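Liver RNA of 5 AAV-NC and 6 AAV-TuD mice was examined. From 500 ng RNA the authors made QuantSeq 3′ libraries, used BBDuk for trimming, STAR 2.5.3a for alignment to GRCm38 and Rsubread for counting. The deposited values are these raw counts per gene, and every gene in the table reaches 10 reads in 5 livers or more. The annotation, strand setting and handling of reads with several matches are not given in the sources used here, and genes with similar ends are marked as uncertain. No column of other samples was used.

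A gene was tested if its reads exceeded 10 in 5 or more livers. The test was quasi-likelihood, by edgeR 4.0.16 under R 4.3.3 (TMM factors, Benjamini-Hochberg adjustment, threshold 0.05), and was checked on simulated data. DESeq2 1.42.0, limma 3.58.1 (voom with quality weights), other factors and filters, removal of a lowess trend with abundance (span 0.3) and leaving out livers were alternatives. At these depths 1 CPM is about 10 reads, so that counting error limits genes such as *Pdk4*.

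The genes and all lists were chosen with earlier results of these data known. By rule, every gene of the group is accounted for, those past the threshold with all livers and the most abundant other gene of each role by range. Of the other lists, up to 3 genes past the threshold by smallest p value and the most abundant gene are named, except 1 gene that is not reported here. Gene coordinates and 3′ UTRs come from GENCODE M21, which holds 13323 of the 13334 genes tested, and miRNA and promoter sequences from RefSeq tables, which matched 31 of the 37 genes. Transcript ends (500 bases) were compared with all annotated transcripts at 95% identity over at least 100 bases.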

Additional observations from a re-analysis of the deposited data

Results flagged for a closer look

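A value was taken up here where the highest or lowest liver of a group stood apart, by the gap to its nearest neighbour as a share of the group's range (Dixon's criterion). Of 118 groups of values examined, 10 were past it, where chance gives about 5.9. *Cyp4a10* was at 117 CPM in AAV-NC 1, where the rest of that group held 39.8 to 52.2 CPM (ratio 0.840). *Aldh3a2* was also highest in AAV-NC 1, with 58.1 CPM against 31.4 to 38.8 CPM (0.725). *Creb3l3* was highest in AAV-NC 7, with 303 CPM against 235 to 249 CPM (0.785). AAV-TuD 4 stood apart in 3 genes. It was lowest for *Eci2* (57.3 CPM against 64.6 to 68.8 CPM, 0.634) and highest for *Ehhadh* (18.0 CPM against 10.9 to 12.6 CPM, 0.752) and *Pdk4* (2.19 CPM against 1.55 to 1.71 CPM, 0.751). *Etfa* was lowest in AAV-TuD 10 (63.5 CPM against 78.8 to 86.1 CPM, 0.677). *Pex11a* was highest in AAV-TuD 5 (122 CPM against 100 to 108 CPM, 0.634), and *Lpin1* in AAV-TuD 3 (64.3 CPM against 30.9 to 41.0 CPM, 0.699). The share of reads on *Mup* genes was 38.6% in AAV-NC 7, against 13.8% to 18.7% in the rest of the group (0.804).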

How the results depend on the processing

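The number of genes of the group that were higher with AAV-TuD was 4 and stayed between 3 and 6 under all alternatives and without each liver in turn, and *Acot2*, *Vnn1* and *Ucp2* were among them each time. The number lower was 0 and between 0 and 1 without each liver in turn, with *Etfa* lower without AAV-NC 8. The number of other pathway genes past the threshold was 15, 9 with library size alone, and between 11 and 19 without each liver in turn. With library size alone the log2 fold change of *Ncor1* was 0.0323 in place of -0.204. Over the named genes and all alternatives, 1137 values stayed on their side of the threshold, 68 lost the call and 11 gained it. A further 1, of a gene called in the main test, changed direction. Changes of sign without a call in either fit, as for *Acot3* and *Cyp4a14*, were counted among the 1137. The cause of the changes was not tested. No paired analysis was possible because the groups compared share no replicate numbers. Genes under about 1 CPM rest on few reads, and the interval of *Cyp4a14* includes 2-fold in either direction and that of *Acot3* 2-fold lower.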
